A study of Arabidopsis thaliana with 12 samples.

Results

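Undamaged leaves of wounded Arabidopsis thaliana rosettes were compared between the mutant isi1-2 and the wild type (WT), to see which functions differ between the genotypes after a distant leaf has been damaged. The comparison uses 6 of the 12 RNA-sequencing samples of the study, 3 of wounded isi1-2 and 3 of wounded WT, chosen by the genotype and treatment in their labels. The WT is the accession Col-0, and isi1-2 (a SALK insertion line in the Col-0 background) is a single mutant line, so an effect of the ISI1 allele cannot be told apart from any other difference carried by that line. Plants were 5 weeks old, a large area of leaf 8 was crushed with forceps, and leaf 13 of the same rosette was harvested 1 h later. Each sample pooled 2 plants. The other 6 samples, 3 of each genotype, came from plants that were not wounded and are used here to show which differences were present without wounding, in the test of the interaction, and in the shared estimate of the spread between replicates. The samples are called WT wounded 1 to 3 and isi1-2 wounded 1 to 3, by their replicate number.

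Crushing a leaf sends electrical and chemical signals through the vasculature, and distant leaves connected to it begin to make jasmonic acid within minutes. The hormone is conjugated to isoleucine, the conjugate (JA-Ile) brings the COI1 receptor together with JAZ repressor proteins, the repressors are degraded, and MYC transcription factors then switch on defence genes. Among the first targets are the JAZ genes and the enzymes that inactivate JA-Ile, so that the response limits itself. ISI1 (IMPAIRED SUCROSE INDUCTION 1) is known from mutants with altered sugar responses, and its promoter is active in the phloem. The same leaf also carries responses of defence chemistry, growth hormones, the clock and photosynthesis, which were followed here with 46 lists of genes of known function or family, 952 genes in all. Of these, 803 passed the filter on low counts and were tested.

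The 6 wounded libraries held 25476086 to 30747778 counts over genes, and every level below is in counts-per-million (CPM) scaled by edgeR's TMM factors. WT wounded 1 stood apart from its group. Its chi-square statistic per degree of freedom over genes was 24.2 against WT wounded 2 and 15.3 against WT wounded 3, while WT wounded 2 and 3 gave 5.30 against each other and the isi1-2 pairs 8.40 to 9.29. Across genes, Pearson's r of its log2 CPM was 0.986 with WT wounded 2 and 0.989 with WT wounded 3, and 0.984 to 0.988 with the isi1-2 wounded samples, while WT wounded 2 and 3 had 0.993 with each other. Results are therefore given with all samples and again without WT wounded 1. The tissue was checked with marker genes. The 5 mesophyll markers summed to 25540 to 29450 CPM in the wounded samples, with overlapping groups, none of the 5 root markers passed the filter, and a single shoot meristem or flower marker (AG) passed it, at 0.133 to 0.607 CPM. Of 32 marker genes tested, 1 was called between the genotypes, the wax synthesis gene CER6, which also serves in the epidermis list. Without WT wounded 1 the phloem companion cell marker APL was called as well, at 14.9, 14.4 and 13.3 CPM in WT wounded and 17.0, 16.7 and 17.6 CPM in isi1-2 wounded (log2 fold change 0.31; edgeR adjusted p = 0.0492, and 0.0889 with all samples). Whether a lower transcript level means less RNA per cell or fewer cells of a type cannot be told apart in whole leaves.

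ISI1 (AT4G27750) was examined first. It stood at 9.50, 11.2 and 11.6 CPM in the WT wounded samples and at 0.166, 0.0405 and 0.0397 CPM in the isi1-2 wounded samples. The mutant libraries held 6 reads of the gene in all against 905 in WT, a 133-fold lower level with an exact 95% interval of 60.9 to 363 that covers counting error only. All 3 mutant samples were far below all WT samples (log2 fold change -6.97, SE 0.26; edgeR adjusted p = 2.34e-10). The nearest genes on either side that could be tested, AT4G27740, AT4G27745, FEY and ACBP2, were not called (edgeR adjusted p = 0.62 to 0.95). AT4G07895 and MIR828, also next to ISI1, were at 0 or 1 read in each wounded library and were not tested.

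Of 18698 genes tested, 446 were called in wounded plants (2.39%), with 261 higher (1.4%) and 185 lower (0.989%) in the mutant at a threshold of 0.05 on the Benjamini-Hochberg adjusted p of edgeR. An unadjusted p under 0.05 was reached by 16.6% of genes. In each of the 446 genes the 3 mutant and 3 WT samples did not overlap, and over all genes tested 20.1% had groups that do not overlap. Most differences were modest. The median log2 fold change was 0.47 among genes called higher and -0.46 among those called lower, and 48 genes differed at least 2-fold, 0.257% of those tested, 33 higher and 15 lower. Leaving out WT wounded 1 gave 940 calls (5.03%), 514 higher (2.75%) and 426 lower (2.28%). Of the 446, 403 were among these 940, all with the same sign, which is 90.4% of the first set and 42.9% of the second. Leaving out WT wounded 3 gave 103 calls, isi1-2 wounded 2 gave 137, and isi1-2 wounded 3 gave 284. A fit to the 6 wounded samples alone, without the unwounded samples' part in the estimate of the spread, gave 160, 115 higher and 45 lower. Of the 446 genes, 87 were called whichever of the 6 wounded samples was left out, 63 higher and 24 lower.

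**Figure D1:**
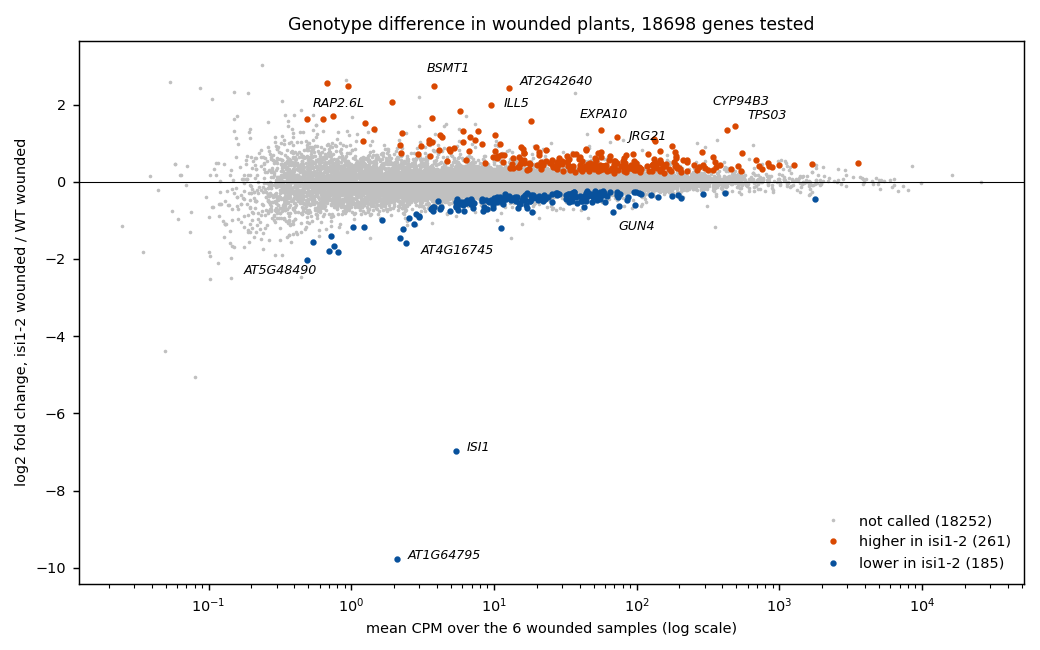
Mean CPM over the 6 wounded samples (horizontal, log scale) and log2 fold change of isi1-2 over WT in wounded plants (vertical) of the 18698 genes tested. Orange points are the 261 genes called higher and blue points the 185 called lower in isi1-2, most of them less than 2-fold from 0, with ISI1 and AT1G64795 far below the rest.

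Before wounding the genotypes differed in 24 genes (0.128%). Of these, 9 were also called in wounded plants, all with the same sign, 2.02% of the calls in wounded plants and 37.5% of those in unwounded plants. The mitogen-activated kinase kinase kinase-like gene AT2G42640 was the clearest. It stood at 3.98, 4.48 and 3.54 CPM in WT wounded and at 20.5, 21.3 and 22.9 CPM in isi1-2 wounded, and at 4.43 to 5.34 and 17.4 to 19.4 CPM in the unwounded genotypes. Both treatments therefore showed a clear gap, with log2 differences of 2.43 in wounded (SE 0.10; edgeR adjusted p = 1.24e-09) and 1.91 in unwounded plants (edgeR adjusted p = 3.95e-08). AT4G16745, of the exostosin family, was lower in both, at 3.28 to 4.08 CPM in WT wounded and 1.08 to 1.30 CPM in isi1-2 wounded (log2 fold change -1.59, SE 0.17; edgeR adjusted p = 2.10e-04). NIA2, the main nitrate reductase of leaves, was also lower in both, and its values are given with nitrate assimilation. Over the 446 genes, 291 (65.2%) had the same sign in unwounded plants, against 54.1% of all genes tested.

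The jasmonate pathway was followed from synthesis to output. Of 19 synthesis genes tested, 2 were called, both higher in isi1-2, and the median log2 fold change of the list was 0.17, beside -0.01 for all genes tested, of which 2.39% were called. AOS, the allene oxide synthase that opens the jasmonate branch of lipid oxidation, had 2832, 3154 and 2893 CPM in WT wounded and 4108, 4500 and 3823 CPM in isi1-2 wounded. The lowest mutant sample lay above the highest WT sample (log2 fold change 0.49, SE 0.09; edgeR adjusted p = 0.0126). JMT, which methylates jasmonic acid to its volatile ester, had 22.0, 11.2 and 17.6 CPM against 29.2, 33.9 and 26.2 CPM (log2 fold change 0.82, SE 0.18; edgeR adjusted p = 0.0406). LOX3, a lipoxygenase that feeds the pathway, had 1688, 3317 and 2781 CPM in WT wounded and 3235, 3565 and 2895 CPM in isi1-2 wounded. Here WT wounded 1 was low and the groups overlapped (log2 fold change 0.32, SE 0.21; edgeR adjusted p = 0.528). Without WT wounded 1, AOS and JMT remained the called members and the median was 0.10. The call of AOS ended without WT wounded 3 or isi1-2 wounded 2 (edgeR adjusted p up to 0.0804), and that of JMT without WT wounded 3 or any single isi1-2 sample (edgeR adjusted p up to 0.151).

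Inactivation of the hormone had the highest median of the jasmonate lists. Of 9 tested genes of jasmonate catabolism 5 were called, all higher in isi1-2, with a list median of 0.78. CYP94B3, a cytochrome P450 that hydroxylates JA-Ile, stood at 174, 304 and 250 CPM in WT wounded and at 502, 788 and 561 CPM in isi1-2 wounded, 2.54-fold higher (log2 fold change 1.35, SE 0.22; edgeR adjusted p = 0.0152). JRG21, a jasmonate-induced oxygenase that hydroxylates jasmonic acid itself, stood at 43.2, 49.6 and 42.0 CPM against 103, 122 and 78.6 CPM (log2 fold change 1.17, SE 0.15; edgeR adjusted p = 0.00375). ST2A, a sulfotransferase acting on hydroxylated jasmonic acid, stood at 13.5, 7.63 and 6.26 CPM against 26.7, 32.6 and 21.7 CPM (log2 fold change 1.57, SE 0.28; edgeR adjusted p = 0.0214). In these 3 genes each mutant sample was above each WT sample, and WT wounded 1 was the lowest WT sample for CYP94B3 and the highest for ST2A. IAR3, an amidohydrolase that cleaves hormone conjugates, had 608, 781 and 694 CPM against 952, 1026 and 937 CPM (log2 fold change 0.48, SE 0.10; edgeR adjusted p = 0.0212). CYP94B1, a relative of CYP94B3 and the fifth called member, had 156, 267 and 214 CPM against 343, 399.9 and 354 CPM (log2 fold change 0.78, SE 0.17; edgeR adjusted p = 0.042). ILL5, a hydrolase related to IAR3 that is in no list, had 3.72, 4.74 and 3.02 CPM against 16.8, 17.7 and 11.2 CPM (log2 fold change 1.98, SE 0.22; edgeR adjusted p = 0.00134). Before wounding CYP94B3, CYP94B1, JRG21 and ILL5 were at under 1 CPM in each sample of both genotypes, so the levels compared were reached after wounding.

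Leaving out WT wounded 1 changed the catabolism list in part. Then 7 of 9 genes were called, 6 higher and 1 lower, with a median of 0.61. The oxygenase gene AT2G38240, at 116, 239.9 and 172 CPM in WT wounded and 303, 431 and 323 CPM in isi1-2 wounded, was now called higher (log2 fold change 0.78; edgeR adjusted p = 0.0383). CYP94C1, which oxidises hydroxylated JA-Ile further, was now called lower (log2 fold change -0.43; edgeR adjusted p = 0.00755). It had 186, 361 and 304 CPM in WT wounded and 231 to 261 CPM in isi1-2 wounded, so that WT wounded 1 lay below and WT wounded 2 and 3 above all mutant samples. Calls of JRG21 and ILL5 held whichever wounded sample was left out. That of CYP94B3 ended without WT wounded 3 (edgeR adjusted p = 0.0784), that of ST2A without WT wounded 2 or 3 or isi1-2 wounded 2, that of IAR3 without WT wounded 3 or isi1-2 wounded 2 or 3, and that of CYP94B1 without WT wounded 3 or any single isi1-2 sample, with adjusted p up to 0.153.

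Repression and signalling differed less. Among 13 JAZ genes 2 were called, both higher, with a median of 0.11 (0.04 without WT wounded 1, and the same count). JAZ3 had 175, 199 and 179 CPM in WT wounded and 294, 268 and 235 CPM in isi1-2 wounded (log2 fold change 0.53, SE 0.08; edgeR adjusted p = 0.00385). JAZ10, a strongly induced repressor used as a wound marker, had 234, 347 and 290.0 CPM against 426, 394 and 426 CPM (log2 fold change 0.52, SE 0.11; edgeR adjusted p = 0.0246). Both groups were separate in both genes, but WT wounded 1 was the lowest JAZ10 sample and the JAZ10 call ended without WT wounded 3 or any single isi1-2 sample (edgeR adjusted p up to 0.109). NINJA, the adaptor that links JAZ proteins to a co-repressor, was the called member of 11 signalling genes, at 82.6 to 86.7 CPM in WT and 104 to 114 CPM in isi1-2 (log2 fold change 0.37, SE 0.06; edgeR adjusted p = 0.00375), and JAZ3 and NINJA were called in every fit that left out a wounded sample. Of 10 defence output genes 0 were called by edgeR, 4 had an unadjusted p under 0.05, and DESeq2 called 2, both higher. Their median log2 fold change was 0.42, and 0.54 without WT wounded 1, above the medians of the synthesis and JAZ lists. It was positive in 7 of the 10 genes with all samples and in 9 without WT wounded 1. CLH1, a chlorophyllase gene, had 1477 to 1697 CPM in WT and 1864 to 2298 CPM in isi1-2 (log2 fold change 0.43; edgeR adjusted p = 0.093), and NATA1, an acetyltransferase of polyamine defence, showed a log2 difference of 0.73 (edgeR adjusted p = 0.124). VSP2, a vegetative storage protein and a common jasmonate marker, varied from 157 to 287 CPM in WT and from 137 to 257 CPM in isi1-2 (log2 fold change -0.04, SE 0.55; edgeR adjusted p = 0.981). The wounded groups overlapped in this marker.

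**Figure D2:**
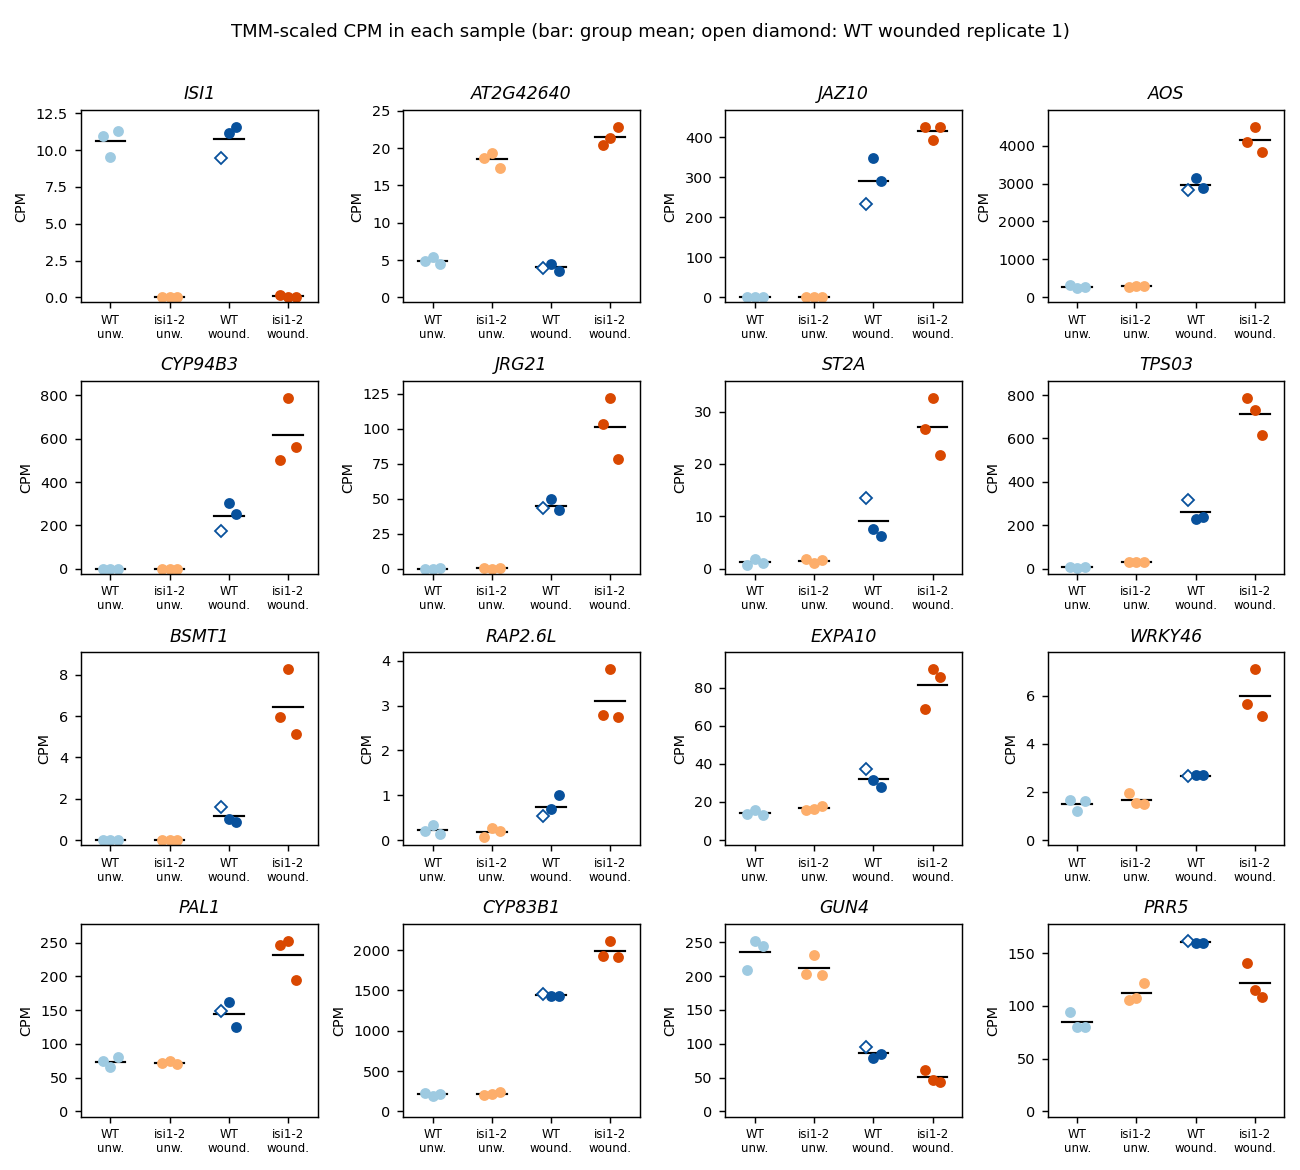
TMM-scaled CPM (vertical, from 0) of 16 genes in each of the 12 samples, with the group mean as a bar and WT wounded 1 as an open diamond. ISI1, AT2G42640 and TPS03 differ between the genotypes in both treatments, and CYP94B3, JRG21 and BSMT1, all at under 1 CPM before wounding, are higher in wounded isi1-2 than in wounded WT.

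Genes of terpene and leaf volatile synthesis showed the highest list median, 0.99 with all samples and again 0.99 without WT wounded 1, and 5 of 8 tested genes were called, all higher in isi1-2. TPS03, a synthase of the monoterpene ocimene, stood at 318, 229 and 237 CPM in WT wounded and at 786, 732 and 618 CPM in isi1-2 wounded (log2 fold change 1.44, SE 0.19; edgeR adjusted p = 0.00583). BSMT1, which makes methyl salicylate and methyl benzoate, stood at 1.58, 1.03 and 0.884 CPM against 5.94, 8.26 and 5.16 CPM, 5.55-fold higher (log2 fold change 2.47, SE 0.26; edgeR adjusted p = 0.00109). TPS04, the geranyllinalool synthase that starts the path to a homoterpene, stood at 86.4, 104 and 73.5 CPM against 191, 213 and 144 CPM (log2 fold change 1.06, SE 0.20; edgeR adjusted p = 0.0416). All 3 genes had mutant samples well above the WT samples, and BSMT1 had no reads in any unwounded library. TPS02, the neighbour of TPS03 in the genome, was at 0.299 to 0.864 CPM in WT and 1.54 to 2.16 CPM in isi1-2 (log2 fold change 1.52, SE 0.35; edgeR adjusted p = 0.0375). CHAT, an acetyltransferase making the green leaf volatile hexenyl acetate and the fifth called member, had 1.95 to 2.26 CPM in WT and 5.23, 4.09 and 2.74 CPM in isi1-2 (log2 fold change 0.92, SE 0.23; edgeR adjusted p = 0.0451). Without WT wounded 1 the linalool synthase gene TPS10 entered the calls (log2 fold change 0.83; edgeR adjusted p = 0.0138) and TPS04 left them (edgeR adjusted p = 0.0848). Calls of TPS03 and BSMT1 held in all 6 fits that left out a wounded sample, and those of TPS04, TPS02 and CHAT ended without WT wounded 3 or isi1-2 wounded 1 or 2 (edgeR adjusted p up to 0.177). The call of TPS02 also ended without WT wounded 2 or isi1-2 wounded 3, and that of CHAT without WT wounded 2. TPS03 was the only member of this list called before wounding, with a log2 difference of 2.13 (edgeR adjusted p = 0.00933).

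Aromatic and indolic defence chemistry was the next group with several calls. In phenylpropanoid and lignin synthesis 4 of 18 tested genes were called, all higher, with a median of 0.32, and without WT wounded 1 there were 6 higher and 1 lower with the same median. PAL1, the phenylalanine ammonia-lyase at the entry of the pathway, had 148, 162 and 124 CPM in WT wounded and 247, 253 and 195 CPM in isi1-2 wounded (log2 fold change 0.68, SE 0.11; edgeR adjusted p = 0.00745). C4H, the cinnamate hydroxylase of the second step, had 103 to 121 CPM against 140 to 167 CPM (log2 fold change 0.47, SE 0.07; edgeR adjusted p = 0.00362). The ligase genes 4CL2 and 4CL1, which activate coumarate, were higher by log2 0.63 for 4CL2 (SE 0.13) and log2 0.33 for 4CL1 (SE 0.07), with edgeR adjusted p = 0.0144 and 0.0203. PAL1 and C4H kept their calls whichever wounded sample was left out, and the ligase genes lost theirs without WT wounded 3 or isi1-2 wounded 2 (edgeR adjusted p up to 0.127). Without WT wounded 1 the added genes were CCR1 and CSE, later lignin enzymes, with log2 differences of 0.44 and 0.32, and 4CL3, a ligase linked to flavonoids, with -0.47 with all samples and -0.56 without it.

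Tryptophan and the indole glucosinolates made from it followed. Of 10 genes of tryptophan synthesis 3 were called, all higher, with a median of 0.23, and 5 without WT wounded 1. AT2G04400, the indole glycerol phosphate synthase, had 218, 222 and 201 CPM in WT wounded and 282, 295 and 287 CPM in isi1-2 wounded (log2 fold change 0.43, SE 0.07; edgeR adjusted p = 0.00385). TSA1, the alpha chain of tryptophan synthase, had 132, 115 and 99.7 CPM against 155, 170.1 and 160.5 CPM (log2 fold change 0.49, SE 0.08; edgeR adjusted p = 0.00429). PAT1, which attaches the sugar phosphate to anthranilate, showed a log2 difference of 0.35 (SE 0.06; edgeR adjusted p = 0.0109). The mutant samples of these genes lay above the WT samples without exception. Among 18 genes of indole glucosinolate synthesis 3 were called, all higher, with a median of 0.22 (6 higher and 1 lower, 0.30, without WT wounded 1). CYP83B1, which commits indole oximes to glucosinolates, had 1431 to 1460 CPM in WT and 1911 to 2114 CPM in isi1-2 (log2 fold change 0.46, SE 0.08; edgeR adjusted p = 0.0053). IGMT5, a methyltransferase that decorates the indole ring, had 491, 369 and 378 CPM against 720.3, 694 and 664 CPM (log2 fold change 0.75, SE 0.13; edgeR adjusted p = 0.0126). Its log2 fold change in unwounded plants was 0.83, not called (edgeR adjusted p = 0.103). SOT16, the sulfotransferase of the last core step, showed a log2 difference of 0.39 (SE 0.08; edgeR adjusted p = 0.0224). The lower gene without WT wounded 1 was PEN2, a myrosinase that breaks indole glucosinolates down, at 161, 210.2 and 223 CPM in WT and 150 to 172 CPM in isi1-2 (log2 fold change -0.42; edgeR adjusted p = 0.0058).

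In glucosinolate breakdown 1 of 8 genes was called, NSP1, which steers hydrolysis towards nitriles (log2 fold change 0.57, SE 0.11; edgeR adjusted p = 0.0138). In the reference genome 19.8% of its 100-base exon windows occur more than once, so its count may miss or share reads. By contrast 0 of 22 tested genes of aliphatic glucosinolate synthesis were called by edgeR and 0 by DESeq2, 1 had an unadjusted p under 0.05, and the list median was -0.04. Calls of AT2G04400, TSA1 and CYP83B1 held in each fit that left out a wounded sample. Those of PAT1, IGMT5 and SOT16 ended without WT wounded 3 or isi1-2 wounded 2, and that of NSP1 without WT wounded 3 (edgeR adjusted p up to 0.119). Tau glutathione transferases, which conjugate glutathione to reactive compounds, had 4 of 17 tested genes called, all higher both with and without WT wounded 1. GSTU4 had 1.16, 2.42 and 1.69 CPM in WT wounded and 5.48, 6.40 and 4.80 CPM in isi1-2 wounded, 3.13-fold higher (log2 fold change 1.65, SE 0.26; edgeR adjusted p = 0.00375), and was called in all 6 fits. GSTU5, GSTU6 and ERD9 were higher by log2 0.43, 0.63 and 0.67, and their calls ended without WT wounded 3 or isi1-2 wounded 2 (edgeR adjusted p up to 0.102), that of GSTU5 also without isi1-2 wounded 3 and that of ERD9 also without isi1-2 wounded 1.

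**Figure D3:**
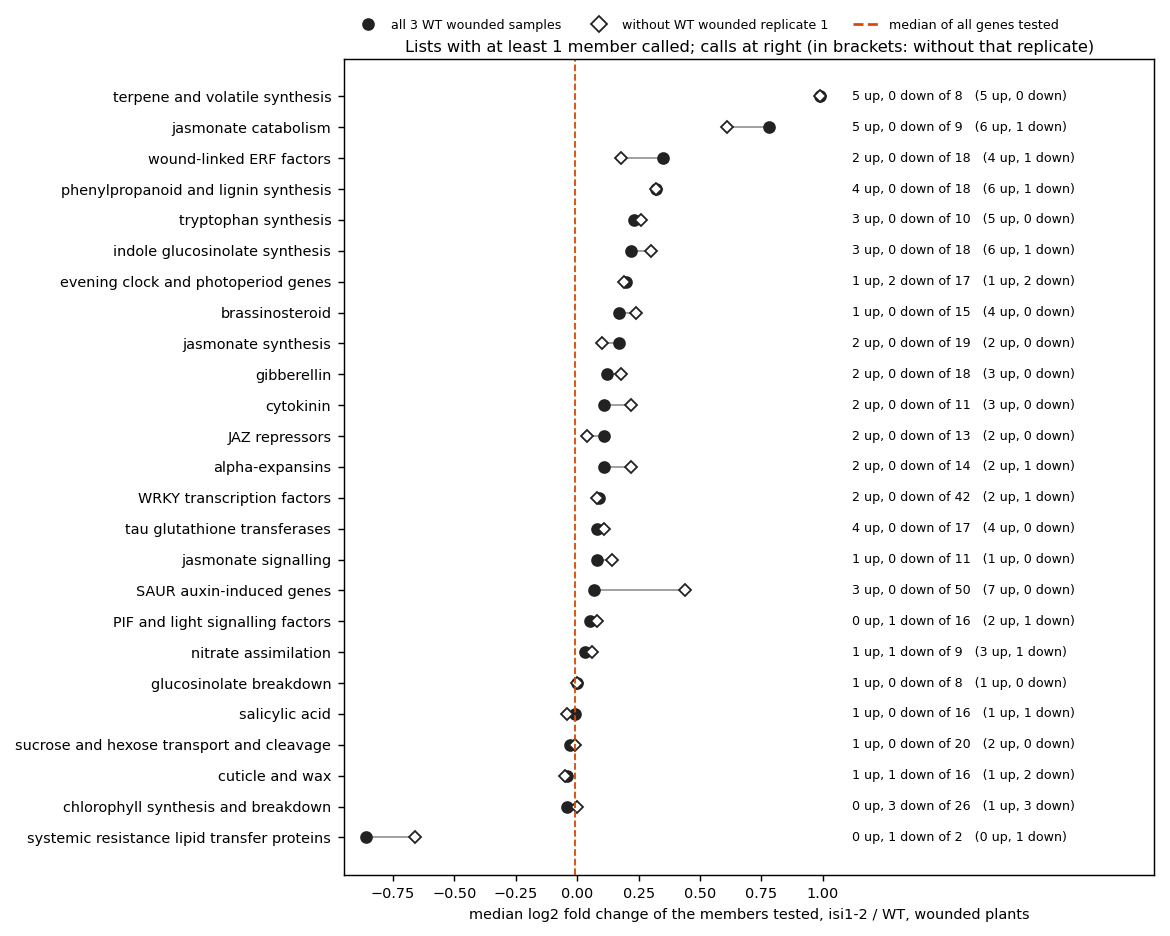
Median log2 fold change of isi1-2 over WT in wounded plants for the 25 lists with at least 1 member called, with all samples (filled circles) and without WT wounded 1 (open diamonds), beside the median of all genes tested (dashed line). Terpene and volatile synthesis and jasmonate catabolism have the highest medians, and the numbers at the right give the members called higher and lower.

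Over the 46 lists, 58 of the 803 genes tested were called, beside 2.39% of all genes tested, and the other 388 called genes were in no list. The lists were chosen with earlier results of these data known, so their share of calls is not an independent result. A call was present in 25 lists, with higher calls alone in 19, lower calls alone in 3 and both in 3. Of all calls, in lists or not, 58.5% were higher. Without WT wounded 1, 34 lists had a call, while the share called among all genes tested rose to 5.03%. The plot of list medians shows that leaving out this sample moved the SAUR genes most and left the terpene list in place.

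Transcription factors of the wound response were examined next, beside 1.4% of all genes tested called higher. Of 18 wound-linked ERF genes 2 were called, both higher. RAP2.6L, an ERF known from wound and stress responses, had 0.526, 0.697 and 0.994 CPM in WT wounded and 2.78, 3.81 and 2.74 CPM in isi1-2 wounded, 4.19-fold higher (log2 fold change 2.07, SE 0.29; edgeR adjusted p = 0.00241). ERF4, a repressor of ethylene and jasmonate responses, had 54.1 to 59.9 CPM against 81.4 to 86.5 CPM (log2 fold change 0.54, SE 0.09; edgeR adjusted p = 0.00384). Both were called in each fit that left out a wounded sample. After removal of WT wounded 1, RAP2.6 and ERF104 were also called higher and ERF2, an activator of defence genes, lower (log2 fold change -0.58; edgeR adjusted p = 0.0116). In that fit 5 of the 18 ERF genes were called, beside 5.03% of all genes tested. The ERF list median was 0.35 with all samples and 0.18 without WT wounded 1. Of 42 WRKY genes 2 were called with all samples, both higher, and 69.0% of the list had a positive log2 fold change, beside 48.5% of all genes tested. The fit without WT wounded 1 added a lower call, WRKY18 (log2 fold change -0.65; edgeR adjusted p = 0.0291). In that fit 54.8% of the WRKY list were positive, near the 51.7% of all genes tested. WRKY46, a factor of salicylate and drought responses, had 2.67, 2.69 and 2.69 CPM in WT wounded and 5.65, 7.09 and 5.16 CPM in isi1-2 wounded (log2 fold change 1.15, SE 0.17; edgeR adjusted p = 0.00272). WRKY19 showed a log2 difference of 0.29 (SE 0.07; edgeR adjusted p = 0.0281), lost without WT wounded 3 or any single isi1-2 sample (edgeR adjusted p up to 0.155). AT1G10585, a bHLH factor in no list, had 2.14 to 2.99 CPM in WT and 8.01 to 9.60 CPM in isi1-2 (log2 fold change 1.84, SE 0.18; edgeR adjusted p = 1.01e-04).

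Salicylic acid genes gave 1 call in 16, EDS5, the exporter that carries salicylate precursor out of the chloroplast, with 40.6 to 45.3 CPM in WT and 51.6 to 60.8 CPM in isi1-2 (log2 fold change 0.41, SE 0.10; edgeR adjusted p = 0.0415). With WT wounded 1 left out, the immune regulator EDS1 was called lower (log2 fold change -0.44; edgeR adjusted p = 0.00412). It had 36.2, 57.9 and 54.0 CPM in WT wounded and 38.4 to 44.6 CPM in isi1-2 wounded. AT5G48490, a lipid transfer protein of systemic resistance, was lower, at 1.76, 1.06 and 0.957 CPM in WT wounded and 0.374, 0.243 and 0.436 CPM in isi1-2 wounded (log2 fold change -1.82, SE 0.35; edgeR adjusted p = 0.012). It rests on few reads, as 3 reads make 0.119 to 0.125 CPM in the isi1-2 wounded libraries. Its list had 2 of 5 members tested, the other with a log2 fold change of 0.11. The EDS5 call ended without WT wounded 3 or isi1-2 wounded 2 or 3 (edgeR adjusted p up to 0.188), and that of AT5G48490 without isi1-2 wounded 2 (edgeR adjusted p = 0.0728).

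Growth-related genes gave few calls with all samples and more without WT wounded 1, as did all genes tested (2.39% and 5.03% called). EXPA10, an expansin that loosens cell walls, had 37.1, 31.6 and 27.9 CPM in WT wounded and 68.8, 89.5 and 85.5 CPM in isi1-2 wounded, 2.52-fold higher (log2 fold change 1.34, SE 0.11; edgeR adjusted p = 4.13e-05). The lowest mutant sample was above every WT sample by a wide margin, and the call held in all 6 fits. EXPA16 was the other called member of 14 alpha-expansins (log2 fold change 0.50, SE 0.11; edgeR adjusted p = 0.0311), and its call ended without WT wounded 1, 2 or 3 or isi1-2 wounded 1 or 2 (edgeR adjusted p up to 0.138). The called alpha-expansins without WT wounded 1 were EXPA10 and EXPA1, higher, and EXPA5, lower. In the gibberellin list GAI, a DELLA growth repressor, had 57.0 to 62.3 CPM in WT and 70.5 to 79.96 CPM in isi1-2 (log2 fold change 0.35, SE 0.07; edgeR adjusted p = 0.0138), and GA2OX8, which degrades gibberellins, had 0.263, 0.365 and 0.295 CPM in WT and 1.04, 0.567 and 1.27 CPM in isi1-2 (log2 fold change 1.62, SE 0.38; edgeR adjusted p = 0.0334). In the cytokinin list CKX5, a cytokinin oxidase, and ARR4, a response regulator, were higher by log2 0.48 and 0.23 (edgeR adjusted p = 0.0361 and 0.0461). BKI1, an inhibitor of the brassinosteroid receptor, was higher by log2 0.57 (SE 0.13; edgeR adjusted p = 0.034). The GAI call ended without WT wounded 3 or isi1-2 wounded 2. The other 4 hormone calls ended without WT wounded 2 or 3, and also without isi1-2 wounded 1 or 3 for GA2OX8, 1 or 2 for CKX5, 2 or 3 for BKI1 and any single isi1-2 sample for ARR4 (edgeR adjusted p up to 0.219 for ARR4).

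SAUR genes, small auxin-induced genes linked to cell expansion, showed 3 of 50 called with all samples, all higher, and 7 higher without WT wounded 1. Of all genes tested 1.4% were called higher with all samples and 2.75% without that sample. Their median moved from 0.07 to 0.44. The mean log2 CPM of the 50 genes was 0.99, 0.39 and 0.45 in WT wounded and 0.99, 0.66 and 0.87 in isi1-2 wounded, so WT wounded 1 was level with the highest mutant sample. The called genes were AT1G19840, AT4G34790 and AT3G60690, with log2 differences of 1.62, 1.05 and 0.51 (edgeR adjusted p = 0.0177, 0.0415 and 0.0473). The first of these had under 1 CPM in every wounded sample, and the 3 calls ended without WT wounded 2 or 3 or isi1-2 wounded 2 or 3 (edgeR adjusted p up to 0.221). Auxin genes outside this family gave 0 calls of 20 with all samples by edgeR and 0 by DESeq2, with 1 at an unadjusted p under 0.05. In the fit lacking WT wounded 1, there were 3, all higher, among them PIN3, an auxin exporter, at 22.1, 9.92 and 11 CPM in WT wounded and 21.8, 21.1 and 15.9 CPM in isi1-2 wounded (log2 fold change 0.91; edgeR adjusted p = 2.82e-04). Brassinosteroid calls went from 1 to 4 of 15, the added ones including BR6OX2, which makes the active steroid, at 13.2, 7.27 and 6.92 CPM against 12.4, 16.0 and 19.0 CPM (log2 fold change 1.16; edgeR adjusted p = 2.60e-04).

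**Figure D4:**
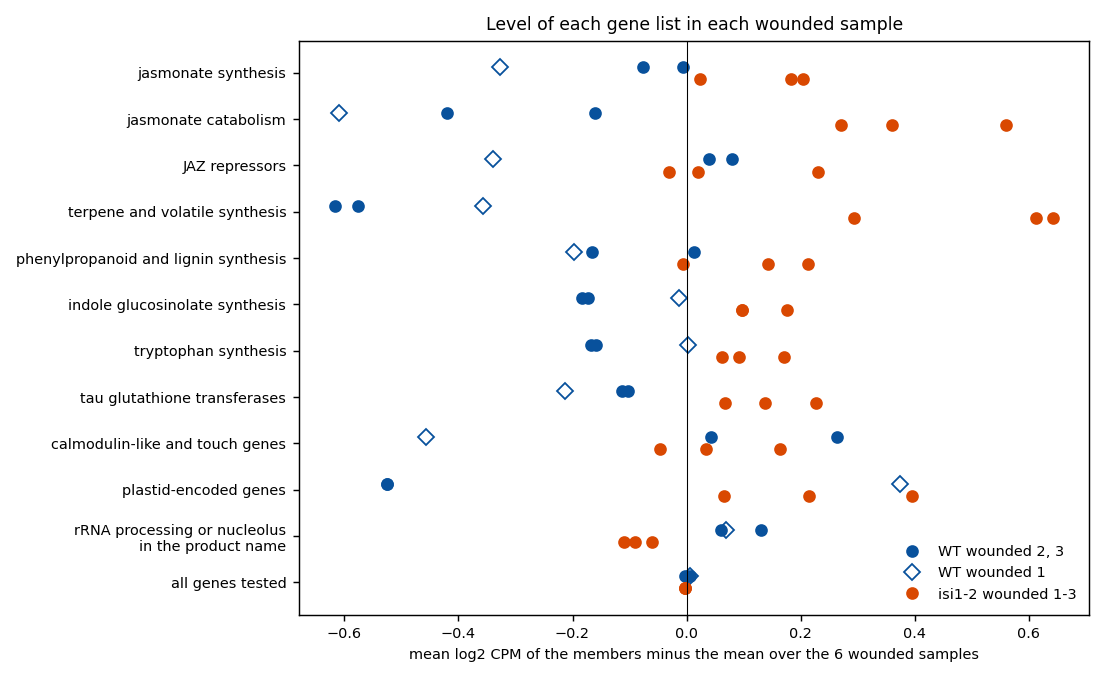
Mean log2 CPM of the members of 11 gene groups and of all genes in each wounded sample, relative to the mean over the 6 wounded samples. Jasmonate catabolism and terpene and volatile synthesis separate the genotypes with WT wounded 1 (open diamond) on the WT side, whereas for plastid-encoded genes and the calmodulin-like and touch genes that sample lies apart from WT wounded 2 and 3.

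Light, clock and chlorophyll genes were called mostly lower with all samples. In chlorophyll metabolism 3 of 26 tested genes were called, all lower, and the list median was -0.04. GUN4, which binds porphyrin and activates magnesium chelatase, had 95.7, 79.0 and 84.3 CPM in WT wounded and 61.2, 47.1 and 43.5 CPM in isi1-2 wounded, 1.71-fold lower (log2 fold change -0.77, SE 0.12; edgeR adjusted p = 0.00805). CAO, which makes chlorophyll b, had 129, 108 and 115 CPM against 90.3, 73.7 and 69.3 CPM (log2 fold change -0.59, SE 0.09; edgeR adjusted p = 0.00375). PORB, a light-dependent protochlorophyllide reductase, had 2165, 1917 and 2035 CPM against 1702, 1495 and 1327 CPM (log2 fold change -0.44, SE 0.08; edgeR adjusted p = 0.00909). PORB lies 31 tested genes from ISI1, and whether its difference comes with that region was not tested. The highest mutant sample was below the lowest WT sample in all 3 genes, and none was called before wounding, where their log2 fold changes were -0.15, -0.21 and -0.04. After removal of WT wounded 1, they remained called, and PPH, a pheophytinase of chlorophyll breakdown, was called higher (log2 fold change 0.30; edgeR adjusted p = 0.0167). GUN4 and CAO were called in each fit that left out a wounded sample, and PORB just missed without WT wounded 3 (edgeR adjusted p = 0.0501). Of 41 nuclear genes of photosystems and light harvesting 0 were called by edgeR and 1 by DESeq2, 9 had an unadjusted p under 0.05, and the median was -0.02. CAB3, a light-harvesting protein gene, had 8248 to 8987 CPM in WT and 6717 to 8160.1 CPM in isi1-2 (log2 fold change -0.21; edgeR adjusted p = 0.114).

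Evening clock and photoperiod genes gave 1 higher and 2 lower calls of 17, with and without WT wounded 1. In unwounded plants 2 of the 17 were called, both higher in isi1-2, beside 0.128% of all genes tested. The interaction of genotype and wounding, described below, also called 2 of the 17 with all samples. CDF1, a repressor of flowering-time genes, had 6.53, 4.35 and 3.31 CPM in WT wounded and 11.1, 10.6 and 8.45 CPM in isi1-2 wounded (log2 fold change 1.09, SE 0.19; edgeR adjusted p = 0.0106). PRR5, a pseudo-response regulator of the clock, had 162, 159.6 and 159 CPM in WT wounded and 140.4, 115 and 109 CPM in isi1-2 wounded (log2 fold change -0.40, SE 0.09; edgeR adjusted p = 0.0283). CHE, a TCP factor that acts on the morning gene CCA1, showed a log2 difference of -0.37 (SE 0.08; edgeR adjusted p = 0.0292). CDF1 lost its call without isi1-2 wounded 2 (edgeR adjusted p = 0.0579), and PRR5 and CHE theirs without WT wounded 2 or 3 or isi1-2 wounded 2 or 3 (edgeR adjusted p up to 0.154). Of 12 morning clock genes 0 were called by edgeR and 0 by DESeq2, 3 had an unadjusted p under 0.05, and the median was -0.30 with all samples and -0.12 without WT wounded 1. PIF5, a light-regulated growth factor, was lower (log2 fold change -0.27, SE 0.06; edgeR adjusted p = 0.0225), a call that ended without WT wounded 2 or isi1-2 wounded 1 or 2 (edgeR adjusted p up to 0.0733).

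Nitrate, sugar transport and cuticle genes gave 5 calls with all samples. NIA2 had 44.0, 54.9 and 47.0 CPM in WT wounded and 31.8, 33.7 and 37.3 CPM in isi1-2 wounded (log2 fold change -0.51, SE 0.09; edgeR adjusted p = 0.00767), was called in all 6 fits that left out a wounded sample, and was lower before wounding as well (log2 fold change -0.48; edgeR adjusted p = 0.0355). NRT1.5, which loads nitrate into the xylem, was higher, at 1.82 to 3.42 CPM in WT and 3.68 to 6.15 CPM in isi1-2 (log2 fold change 1.04, SE 0.22; edgeR adjusted p = 0.0261). In unwounded plants NRT1.5 had a log2 fold change of 0.81, not called (edgeR adjusted p = 0.156). The 2 nitrate genes thus differed in opposite directions. In the fit without WT wounded 1, 4 of the 9 nitrate genes were called, with the nitrate transporter gene NRT1.1 and the second nitrate reductase gene NIA1 added. NIA1 had 27.1, 17.5 and 13.4 CPM in WT wounded and 23.3, 26.96 and 29.5 CPM in isi1-2 wounded, higher in that fit (log2 fold change 0.80; edgeR adjusted p = 0.00158) and not called with all samples (edgeR adjusted p = 0.309). ERDL6, a vacuolar glucose exporter, was the called member of 20 genes of sucrose and hexose transport, with 266 to 296 CPM in WT and 341 to 353 CPM in isi1-2 (log2 fold change 0.30, SE 0.06; edgeR adjusted p = 0.0139). CER6, which elongates wax fatty acids, had 231 to 246 CPM in WT and 267 to 315 CPM in isi1-2 (log2 fold change 0.32, SE 0.06; edgeR adjusted p = 0.0157), and LACS1, an acyl-CoA synthetase of wax and cutin synthesis, 58.9 to 63.0 CPM and 45.8 to 48.6 CPM (log2 fold change -0.35, SE 0.08; edgeR adjusted p = 0.0346). NRT1.5, ERDL6, CER6 and LACS1 lost their calls without WT wounded 3 (edgeR adjusted p up to 0.163), that of CER6 also without isi1-2 wounded 2, that of NRT1.5 also without WT wounded 2 or isi1-2 wounded 1 or 3, and that of LACS1 also without WT wounded 2 or any single isi1-2 sample.

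The 21 lists with 0 calls in edgeR with all samples included the cell cycle and the ribosome. As background for the counts below, 9628 of the 18698 genes tested had a negative log2 fold change, and 16.6% had an unadjusted p under 0.05. In each of the 15 mitotic cell cycle genes the log2 fold change was negative, with a median of -0.24, 4 at an unadjusted p under 0.05 and 1 called by DESeq2. CYCD3;1, a cyclin of the entry into division, had 11.3 to 11.5 CPM in WT and 7.33 to 9.09 CPM in isi1-2 (log2 fold change -0.43; edgeR adjusted p = 0.0607). With WT wounded 1 left out, the median was -0.18, and before wounding it was -0.20. Of 52 cytosolic ribosomal protein genes 38 had a negative log2 fold change, with a median of -0.09, 14 at an unadjusted p under 0.05 and 0 called by DESeq2. Sulfate assimilation had a median of -0.13 over 18 genes, 8 at an unadjusted p under 0.05 and 2 called lower by DESeq2, with SDI1, a gene of sulfur limitation, at 0.796 to 1.55 CPM in WT and 0.457 to 0.526 CPM in isi1-2 (log2 fold change -1.18; edgeR adjusted p = 0.0634). Ethylene genes had a median of 0.18 over 18 genes, 6 at an unadjusted p under 0.05 and 2 called higher by DESeq2, with ACO4, an ethylene-forming oxidase, at 338 to 387 CPM in WT and 418 to 479 CPM in isi1-2 (log2 fold change 0.32; edgeR adjusted p = 0.0539). Heat shock genes (median 0.22 of 12), abscisic acid (0.06 of 21), starch breakdown (0.00 of 18), starch synthesis (0.05 of 13), flavonoids (-0.07 of 14) and aquaporins (-0.01 of 13) had no call in edgeR either, with 2 to 6 genes each at an unadjusted p under 0.05 and at most 1 called by DESeq2.

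Among the 10 genes lowest in isi1-2 by the naming rule, AT4G16745 and GUN4 are described above. PAP8, a purple acid phosphatase gene, had 3.42, 4.08 and 3.76 CPM in WT wounded and 2.08, 1.74 and 1.47 CPM in isi1-2 wounded (log2 fold change -1.09, SE 0.18; edgeR adjusted p = 0.00513). AT3G62460, a putative endonuclease or glycosyl hydrolase, had 2.62 to 4.27 CPM and 1.01 to 1.35 CPM (log2 fold change -1.45, SE 0.21; edgeR adjusted p = 0.00301), and 12.9% of its exon windows occur more than once in the reference genome. Both were called in every fit that left out a wounded sample. AT1G06360, of the fatty acid desaturase family, had 10.5, 16.7 and 19.5 CPM against 7.39, 7.04 and 5.91 CPM (log2 fold change -1.20, SE 0.22; edgeR adjusted p = 0.0177). TCL2, a small MYB protein that limits trichome formation, had 5.11, 3.85 and 2.76 CPM against 1.94 to 2.16 CPM (log2 fold change -0.90, SE 0.19; edgeR adjusted p = 0.0186). The remaining ones were AT1G64360 (-1.21), AT1G33440 (-0.93), the vacuolar processing protease BETA-VPE (-0.90) and AT3G45160 (-0.82). In unwounded plants AT1G64360 had a log2 fold change of -1.23, not called (edgeR adjusted p = 0.0741). Calls of AT1G06360 and BETA-VPE ended without WT wounded 2 or 3 or isi1-2 wounded 2 or 3, that of TCL2 without isi1-2 wounded 2 or 3, that of AT1G64360 without WT wounded 3 or isi1-2 wounded 2, and that of AT3G45160 without WT wounded 3 or isi1-2 wounded 3 (edgeR adjusted p up to 0.103). The call of AT1G33440 ended without WT wounded 1 (edgeR adjusted p = 0.0924), WT wounded 3 or any single isi1-2 sample. On the higher side, NAI2, a component of the endoplasmic reticulum bodies that store myrosinases, had 6.87, 3.62 and 2.87 CPM in WT wounded and 13.0, 10.5 and 9.83 CPM in isi1-2 wounded (log2 fold change 1.32, SE 0.27; edgeR adjusted p = 0.025). Its call ended without WT wounded 2 or 3 or isi1-2 wounded 1 or 2 (edgeR adjusted p up to 0.0881).

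Without WT wounded 1, 537 genes were called that had not been called with it, 267 higher and 270 lower in isi1-2. In 256 of the 267 the omitted sample lay above WT wounded 2 and 3, and in 266 of the 270 it lay below both. FH3, a formin that organises actin, had 3.08, 1.03 and 0.773 CPM in WT wounded and 4.57, 5.55 and 3.05 CPM in isi1-2 wounded (log2 fold change 2.28 without that sample; edgeR adjusted p = 7.01e-04, and 0.123 with it). AT4G10290, a cupin family gene, had 3.72, 1.92 and 1.66 CPM against 8.47, 6.36 and 4.92 CPM (log2 fold change 1.88; edgeR adjusted p = 8.60e-04, and 0.0607 with it). AT5G54585 had 11.5, 4.38 and 4.35 CPM against 17.1, 14.1 and 10.4 CPM (log2 fold change 1.68; edgeR adjusted p = 3.78e-05, and 0.163 with it). In AT4G10290 WT wounded 1 was still below each mutant sample, in the other 2 it was within their range. On the lower side, the ankyrin repeat gene AT2G24600 had 19.6, 88.5 and 72.6 CPM in WT wounded and 31.1, 32.6 and 30.0 CPM in isi1-2 wounded (log2 fold change -1.36; edgeR adjusted p = 1.75e-06, and 0.330 with it). EXLA1, an expansin-like gene, had 7.47, 31.3 and 25.9 CPM against 9.30, 11.3 and 9.48 CPM (log2 fold change -1.50; edgeR adjusted p = 0.0024, and 0.272 with it). AT4G34150, of the calcium-dependent lipid-binding family, had 19.1, 62.2 and 51.0 CPM against 27.6, 29.0 and 25.3 CPM (log2 fold change -1.04; edgeR adjusted p = 1.10e-05, and 0.367 with it). In these 3 genes the omitted sample was below every mutant sample, so the sign of the difference depends on which WT sample is compared. PUP18, a purine permease gene, and AT4G11000, of the ankyrin repeat family, showed log2 differences of -1.05 and -1.27 without that sample.

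**Figure D5:**
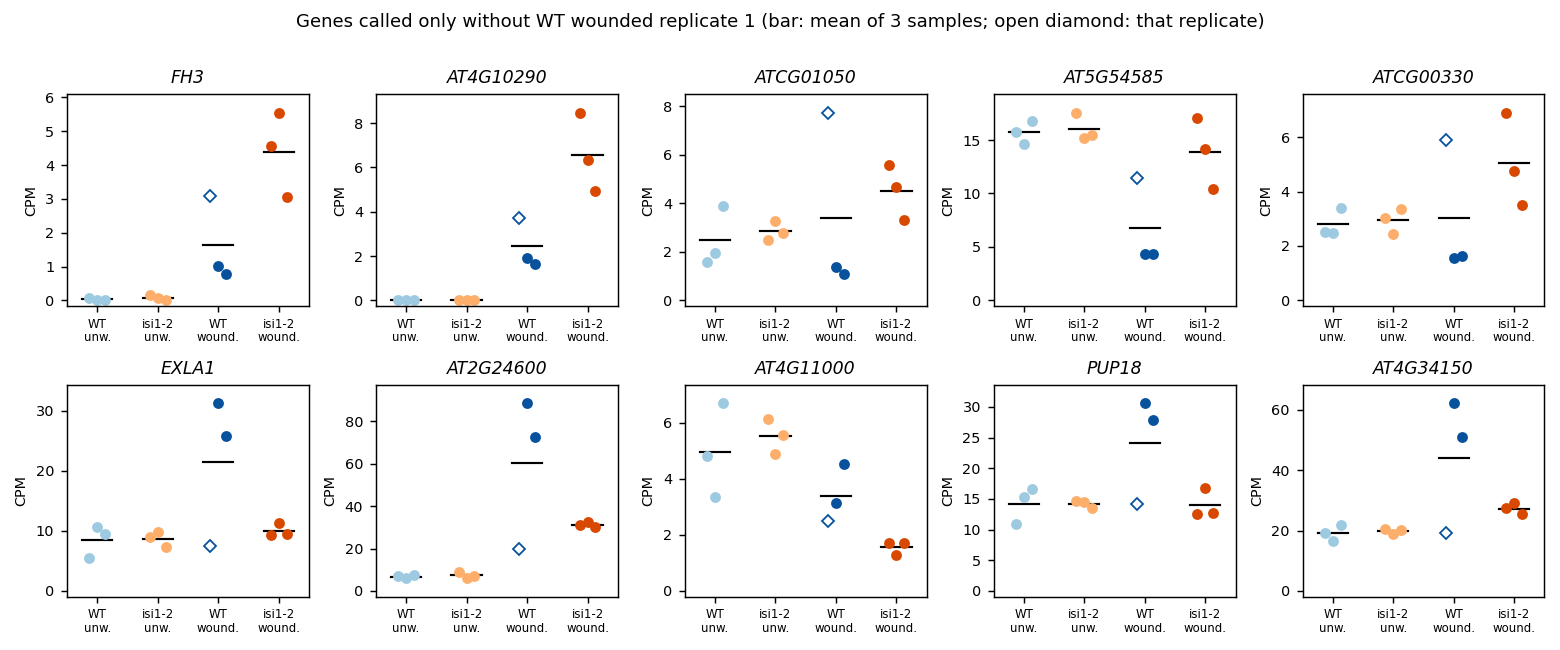
TMM-scaled CPM (vertical, from 0) of the 5 highest and 5 lowest genes called only when WT wounded 1 is left out, in each of the 12 samples, with the mean of 3 samples as a bar. They were picked among genes whose mean log2 CPM reached 1 and whose mutant samples were separate from WT wounded 2 and 3. The open diamond of WT wounded 1 lies nearer to the mutant samples, or beyond them, than WT wounded 2 and 3 do.

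Some plastid-encoded genes belonged to the set called only without WT wounded 1. With all samples 0 of 64 tested were called by edgeR and 0 by DESeq2, 11 had an unadjusted p under 0.05, and the median log2 fold change was 0.41. In the fit lacking WT wounded 1, 18 were called and 46 were not. The 18 were all higher in isi1-2, beside 2.75% of all genes tested called higher in that fit, and the median of the 64 was 0.70. Their mean log2 CPM was 1.73, 0.83 and 0.83 in WT wounded and 1.75, 1.57 and 1.42 in isi1-2 wounded. The library preparation selected poly-A RNA, which most plastid transcripts lack, and plastid genes made up 0.029% to 0.0559% of the counts in the wounded libraries. ATCG01050 had 7.73, 1.39 and 1.07 CPM in WT wounded and 5.56, 4.66 and 3.33 CPM in isi1-2 wounded (log2 fold change 1.87 without WT wounded 1; edgeR adjusted p = 0.00535), and ATCG00330 had 5.89, 1.56 and 1.62 CPM against 6.89, 4.74 and 3.49 CPM (log2 fold change 1.67; edgeR adjusted p = 0.0012). WT wounded 1 was thus as high as the mutant samples in both. How far residual RNA without poly-A tails differs between these libraries was not tested.

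Whether a difference in wounded plants departs from that in unwounded plants was tested by the interaction of genotype and wounding. With all samples it called 6 genes (0.0321%), 5 of them among the 446. EXPA10 was one of them, with 12.9 to 15.7 CPM in unwounded WT and 15.7 to 17.7 CPM in unwounded isi1-2 (interaction log2 1.11, SE 0.17; edgeR adjusted p = 0.0379). PRR5 was another, with 80.3 to 94.1 CPM in unwounded WT and 106 to 122 CPM in unwounded isi1-2, so that it was above WT before wounding and below it afterwards (interaction log2 -0.80, SE 0.13; edgeR adjusted p = 0.0453). The unwounded difference in PRR5 was not called on its own. With all samples, none of the called jasmonate, terpene, phenylpropanoid, tryptophan or indole glucosinolate genes passed this test. After removal of WT wounded 1, the interaction called 242 genes (1.29%), 216 of them also called between the wounded genotypes in that fit. In the lists just named these were IAR3, JAZ3, NINJA, C4H, 4CL2, CSE, TSA1 and PEN2, with edgeR adjusted p for the interaction from 0.00163 for TSA1 to 0.0499 for CSE, and no gene of the terpene list. For the genes that did not pass the interaction, a call in wounded plants and none in unwounded plants does not show that the genotype difference depends on wounding.

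Several genes named here overlap a gene on the opposite strand in the reference annotation, and the strand setting used in counting is not given in the sources used here. For these genes, reads of the partner may be included in the counts. They are BSMT1, JAZ10, AT4G16745, GUN4, PORB, CAO, IGMT5, PAT1, AT2G04400, 4CL1, CCR1, GSTU6, CKX5, NRT1.5, ERDL6, EDS5, WRKY19, EXLA1, AT4G11000, AT4G07895, AT1G64795, NUC-L1, NOP56, ACA1, AT4G27852 and MEB1.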

How the data were processed

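Leaf 13 of 12 samples was profiled by stranded single-end mRNA sequencing, per the labels' protocols. The authors deposited raw counts, whole numbers of reads per gene with no normalization. The submitters' processing notes name cutadapt 1.8, STAR 2.5.3a, HTSeq 0.9.1 and the build TAIR10, and the strand setting is not given in the sources used here. Symbols and overlaps came from RefSeq's TAIR10.1 annotation. Groups were taken from the sample titles.

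The 5 summary lines of each table were dropped. Genes passing edgeR's filterByExpr (minimum count 10, minimum total 15) were tested, 18698 of the 24126 with a read, in R 4.3.3 with edgeR 4.0.16 (TMM scaling, robust quasi-likelihood fit to all 12 samples with 1 coefficient per group, Benjamini-Hochberg adjusted p under 0.05). Standard errors are the log2 fold change over the root of F. Libraries held 23307790 to 30747778 counts, and the biological coefficient of variation was 8.85%. Each replicate is a pool of 2 plants. On simulated counts for the wounded comparison, run on 18698 genes, 96 of 100 genes changed by 0.75 on the log2 scale were recovered and 6 of 18498 unchanged genes were called. The simulation gave every gene the same dispersion (0.007829) and held no sample that stood apart from its group. Changed genes were picked above a floor on mean counts. It therefore checks the fit and does not give the share of genes recovered or falsely called in the real samples. Alternatives were RLE scaling, no filter, DESeq2 1.42.0, a replicate block, the 6 samples of a treatment alone, a 2-fold minimum and leaving out each sample.

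Members, lists and rules were chosen with earlier results of these data known, and lists were given no test. Named genes are ISI1 with its neighbours, JAZ10, LOX3, VSP2, AT2G42640, TPS03 and AT4G16745, the 10 highest and 10 lowest log2 fold changes among calls whose mean log2 CPM reached 1 and whose groups were separate, up to 4 called members of each list by p (2 where none was called), and the 5 highest and 5 lowest of the genes called only without WT wounded 1. CYP94B1, CHAT and the further members called only without WT wounded 1 were named after their values were seen.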

Additional observations from a re-analysis of the deposited data

Results flagged for a closer look

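In EXPA10 and PRR5 the genotype difference itself differed between wounded and unwounded plants in the test of the interaction. EXPA10 had an interaction edgeR adjusted p of 0.0379, with a genotype difference of 1.34 on the log2 scale after wounding and 0.23 without it. PRR5 had an interaction edgeR adjusted p of 0.0453, with -0.40 after wounding and 0.40 without it. The interaction edgeR adjusted p without WT wounded 1 was 5.56e-04 for EXPA10 and 0.00865 for PRR5. Groups of 3 samples were not tested for single samples far from the others.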

How the results depend on the processing

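The 446 calls in wounded plants became 715 in DESeq2, 703 with a replicate block, 160 in the 6 wounded samples alone, 48 with a 2-fold minimum and 103 to 940 when 1 wounded sample was left out. A further 3 settings chosen after seeing the data gave 900 calls (the 5 wounded samples other than WT wounded 1), 1035 (DESeq2 on 11 samples) and 1043 (replicate block on 11 samples). The 24 calls in unwounded plants became 38 with no filter, 91 in DESeq2, 66 with a replicate block, 85 in the 6 unwounded samples alone, 6 with a 2-fold minimum and 6 to 15 when 1 sample was left out. The 6 interaction calls became 29, 150, 75 and 1 under no filter, DESeq2, the replicate block and the 2-fold minimum, and 0 to 242 when 1 sample was left out. At 0 interaction calls, 1353 to 1951 genes still had an unadjusted p under 0.05. Same-numbered samples showed correlations of deviations of 0.167, 0.161 and -0.0147 for numbers 1, 2 and 3, and different-numbered samples -0.191 to 0.0782. Numbers 1 and 2 were thus above all different-numbered pairs. The main fit did not take the numbers as pairs, and whether same-numbered samples share a batch was not tested. With a replicate block, the 6 wounded samples alone gave 535 calls. Of 70 named genes called with all samples, 67 stayed called without WT wounded 1, 29 without WT wounded 3 and 32 without isi1-2 wounded 2, and none changed sign under the settings tried. The causes were not tested. Counting intervals and floors cover counting error only, and low genes such as GA2OX8 rest on few reads.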

Other observations

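Genes of ribosomal RNA processing and the nucleolus, grouped by product name after their values were seen, had 10 of 74 tested members called in wounded plants, all lower in isi1-2, with a median log2 fold change of -0.18. Among all genes tested 2.39% were called and 0.989% were called lower. A group formed after its values were seen is no independent result. In this group 13 members were called without WT wounded 1, also lower, with a median of -0.14, beside 2.28% of all genes tested called lower in that fit. In unwounded plants the median of the group was -0.04. The mean log2 CPM of the group was 3.69, 3.68 and 3.75 in WT wounded and 3.51, 3.53 and 3.56 in isi1-2 wounded. NOP56, a core protein of small nucleolar ribonucleoproteins, had 55.2, 61.8 and 66.5 CPM in WT wounded and 41.5, 45.1 and 44.9 CPM in isi1-2 wounded (edgeR adjusted p = 0.0113). NUC-L1, a nucleolin, had 188, 205 and 211 CPM against 156, 161 and 149.7 CPM (edgeR adjusted p = 0.0129). Both calls ended without WT wounded 3, and that of NUC-L1 also without isi1-2 wounded 3 (edgeR adjusted p up to 0.088).

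CPK28 and ACA1 were picked because WT wounded 1 lay apart in them, and they stand for no wider group. CPK28, a calcium-dependent kinase, had 16.6, 40.3 and 38.6 CPM in WT wounded and 19.3, 20.5 and 19.3 CPM in isi1-2 wounded. ACA1, a calcium pump, had 60.04, 141 and 126 CPM against 80.01, 78.0 and 78.8 CPM. Both were called lower without WT wounded 1 (edgeR adjusted p = 9.44e-06 and 1.09e-04) and not with it (0.252 and 0.436).

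AT1G64795 had 119, 121 and 110 reads in WT wounded and 0 in each isi1-2 library, at least 103-fold lower with a floor of 3 counts over the group, and it was at 0 in unwounded isi1-2 as well. It overlaps AT1G64790 on the opposite strand. Among the 10 tested genes on each side of ISI1, 3 of 20 were called in wounded plants, beside 2.39% of all genes tested, and the wider windows of 25 and 50 genes on each side held 3 of 50 (6.0%) and 6 of 100 (6.0%). The 3 nearest were AT4G27852, MEB1 and AT4G27870, higher in isi1-2 by log2 0.79, 0.76 and 0.55, and AT4G27852 overlaps MEB1 on the opposite strand. PORB, described above as lower, was also among the 6.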
